A study of Mus musculus with 18 samples.

Results

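The proteasome is the protease that degrades ubiquitin-tagged proteins. Its 20S core is a barrel of alpha and beta rings, and 3 of the beta subunits, Psmb5, Psmb6 and Psmb7, carry the catalytic sites. In lymphoid cells and under interferon these are exchanged for Psmb8, Psmb9 and Psmb10, which form the immunoproteasome and favour peptides that MHC class I molecules present. The core is capped by the 19S particle, which recognises and unfolds substrates, or by activators such as PA28, made of Psme1 and Psme2. The proteasome genes described here are those whose symbol starts with Psma, Psmb, Psmc, Psmd, Psme, Psmf or Psmg followed by a digit, which gave 50 of the 32285 genes of the deposited table. Psmb8, Psmb9, Psmb10, Psme1 and Psme2 are described apart from the other 45.

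RNA was measured in 18 libraries of CD45.2(+) C57BL/6 mouse bone marrow cells sorted by flow cytometry, which the labels call iLS without spelling the term out. The cells carried BRD9-NUTM1 (BN1), carried AFF1-NUTM1 (AFFN1) or were controls, and each kind was taken on day 14 and on day 6, with 3 libraries in each of the 6 groups. Both fusions join a partner to NUTM1, a gene that is normally active in the testis and is rearranged in some leukaemias. The labels do not say how the fusions were delivered, from which promoter they were expressed, the age of the mice, or whether replicates are separate cultures or animals. Hence p-values describe the spread among these libraries alone, which could be technical. Samples of the 2 days follow different naming schemes and may be separate experiments. A difference between days therefore cannot be told apart from one between experiments.

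Libraries held 14182539 to 18383449 counts. All 11 markers of CD45 and B-lineage progenitors passed the low-count filter on day 6 and on day 14, and their summed level was 6529 to 11829 CPM in the libraries of day 14 and 5233 to 6871 CPM in those of day 6 (CPM, counts per 1000000 counts, scaled by TMM over all 18 libraries). The 15 stromal markers summed to 13.8 to 151 CPM per library, with the highest sum in AFFN1 2 of day 6. Of the 15, 10 passed the low-count filter on day 6. Lum and Dcn were at 0.04 CPM or lower in every group mean, so the sums came from other genes of the list. On day 14 the control and AFFN1 libraries numbered 1 stood apart: 22 interferon-response genes summed to 2472 CPM in control 1 and 2162 CPM in AFFN1 1, against 584 to 841 CPM in the other 7 libraries. Replicate numbers were taken to pair the libraries of all 3 groups on day 14. On day 6 they were taken to pair those of BN1 and control but not those of AFFN1. The choice for day 6 rests on correlations in these counts alone and is uncertain. Results are from edgeR's quasi-likelihood test, for these paired comparisons without and with the replicate number as a block. A gene was called at a Benjamini-Hochberg adjusted p under 0.05 over all genes tested. Counts of genes with an unadjusted p under 0.05 have no share of all genes beside them, which is not given here.

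Of the 50 proteasome genes, 48 passed the filter on low counts. Psma8, the testis alpha subunit, had 0 counts in every library, and Psmb11, the beta subunit of the thymic cortex, had 1 to 5 counts in 3 libraries and 0 in the others. Psmc3ip matches the symbol rule but encodes a meiotic recombination factor and not a subunit. Psme2b is a copy of Psme2, and both had counts that were not whole in some libraries, so some of their reads could not be assigned to 1 gene and their levels are uncertain. Between which genes those reads were divided was not tested. The sum over the 50 genes took 0.431 to 0.668% of the scaled counts of a library.

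Per kilobase of exon, the control cells of day 6 had the highest level at Psma6, an alpha subunit, with 124 CPM per kb, followed by the catalytic subunit Psmb5 with 117 ± 13.1 CPM per kb (SD, n = 3). The median gene of each role lay at 51.8 CPM per kb in the alpha ring, 57.9 in the 19S ATPases, 36.0 in the other 19S subunits and 61.7 in the immunoproteasome genes. Lower medians were found for the chaperones of 20S assembly, with 19.8 CPM per kb, and for those of the 19S base, with 8.42 CPM per kb. In each catalytic pair the inducible gene had the lower level per kb in these cells: Psmb8 lay at 64.4 ± 4.15 CPM per kb against 117 ± 13.1 for Psmb5, Psmb9 at 31.9 ± 4.28 against 54.3 ± 6.02 for Psmb6, and Psmb10 at 36.2 ± 0.881 against 42.3 ± 7.11 for Psmb7 (SD, n = 3). The last pair was within the spread of its libraries, and on day 14 it lay at 40.0 ± 9.48 CPM per kb for Psmb10 and 29.8 ± 4.21 for Psmb7. Exon length counted every base annotated as exon in any transcript, 3381 for Psmb8 and 899 for Psmb5. The order of the genes within a pair depends on these lengths. Before division by length, control cells of day 6 had 218 CPM for Psmb8 and 105 for Psmb5. They had 117 CPM for Psmb9 and 102 for Psmb6, and 61.8 CPM for Psmb10 and 145 for Psmb7. Among control cells of day 14 the first place was held by Psmb2, a beta subunit without a catalytic site, with 142 CPM per kb. Psmb2 was also first in the BN1 cells of that day, with 105 CPM per kb, and in the AFFN1 cells, with 130 CPM per kb.

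The summed level of the 50 genes was lowest in cells with BN1 on both days. On day 14 it was 4314, 4401 and 4542 CPM in BN1, 5878, 4957 and 5071 CPM in AFFN1 and 6685, 5110 and 5535 CPM in control libraries 1 to 3. All 3 BN1 libraries lay below every AFFN1 and control library of that day, and the highest sums belonged to control 1 and AFFN1 1, the libraries with high interferon-response genes. On day 6 the sums were 4349, 4764 and 4652 CPM in BN1, 4657, 4683 and 5047 CPM in AFFN1 and 5467, 6171 and 4896 CPM in control. The BN1 libraries of day 6 again lay below the 3 control libraries, while they overlapped with AFFN1. Control 3 was the lowest control. In bulk samples, fewer cells of a type and less RNA per cell cannot be told apart.

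**Figure D1:**
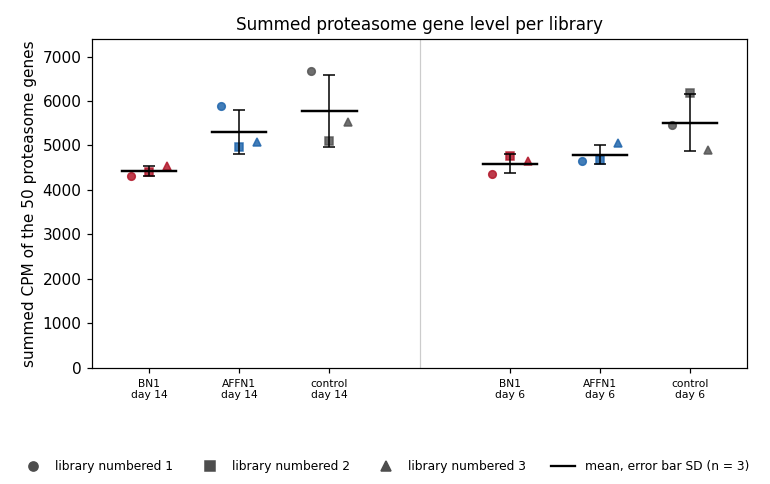
Summed level of the 50 proteasome genes in each library, in CPM, by group, with day 14 on the left and day 6 on the right. Points are libraries, the horizontal line is the mean and the error bar the SD (n = 3). The BN1 libraries sit at 4314 to 4542 CPM on day 14 and 4349 to 4764 CPM on day 6, below all control libraries of the same day.

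The first comparison was BN1 against control on day 6, which asks which transcripts differ in cells with this fusion at the earlier time. Of the 48 genes tested 13 fell and none rose, at 1.21- to 1.41-fold lower levels. Over all 12068 genes tested, 17.4% were called, 8.53% lower and 8.83% higher. The median log2 fold change was -0.31 over the 48 genes and -0.02 over all genes, and 46 of the 48 values were negative. BN1 and control libraries did not overlap for 26 of the 48 genes (54.2%), 25 of them lower in BN1, against 33.6% of all genes. With the replicate number as a block in the fit of the 9 libraries of that day, 6 of the 13 passed, Psma3, Psmb8, Psmc1, Psmd13, Psme2 and Psmg4, against 14.9% of all genes called and 6.96% called lower. The other 7 had adjusted p-values of 0.0510 to 0.0806 with the block. This block also covered the AFFN1 libraries, which did not pair by number. The fit was therefore not a test of the BN1 and control pairs alone. The count without the block depended on single libraries. It was 30 without control 3, 1 without control 1, 2 without control 2, and 1, 5 and 3 without BN1 libraries 1, 2 and 3. Over all genes, 3495 were called without control 3, 1246 without control 1 and 1360 without control 2. Without BN1 libraries 1, 2 and 3, 1141, 1640 and 1562 of all genes were called.

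In the 20S alpha ring Psma1, Psma3 and Psma4 fell. Psma4 had 85.1, 94.7 and 94.3 CPM in BN1, against 121, 145 and 102 CPM in control. Every BN1 library was below every control library (1.35-fold lower, log2 fold change -0.44, 95% confidence interval -0.71 to -0.17, adjusted p = 0.0332, and 0.0512 with the block). Psma3 had 81.5, 96.7 and 84.3 CPM in BN1, against 113, 135 and 101 CPM in control, and was 1.34-fold lower (adjusted p = 0.0345). Among the beta subunits without a catalytic site, Psmb3 and Psmb4 fell. Psmb3 had 72.0, 87.0 and 80.2 CPM in BN1, against 109, 127 and 93.6 CPM in control, again without overlap (1.39-fold lower, adjusted p = 0.0359, and 0.0598 with the block). None of the constitutive catalytic subunits Psmb5, Psmb6 and Psmb7 passed, and 2 of the 3 had an unadjusted p under 0.05.

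The 19S particle contributed Psmc1 and Psmc3, ATPases of its base, and Psmd2 and Psmd13, which are not ATPases. Psmd2, which binds ubiquitin receptors and substrate shuttles, had 226, 239 and 237 CPM in BN1, against 308, 349 and 249 CPM in control. It was 1.30-fold lower, with an adjusted p of 0.0481, and 0.0806 with the block. The other non-ATPase genes included Psmd8, the only one of 11 with a positive log2 fold change, with 182, 190 and 219 CPM in BN1 and 177, 185 and 178 CPM in control. Of the assembly factors, Psmg4, a chaperone of 20S assembly, and Psmd5, a chaperone of the 19S base, fell 1.40-fold and 1.23-fold. Psmg4 had 12.4, 15.2 and 18.3 CPM in BN1 and 20.6, 21.5 and 21.5 CPM in control.

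**Figure D2:**
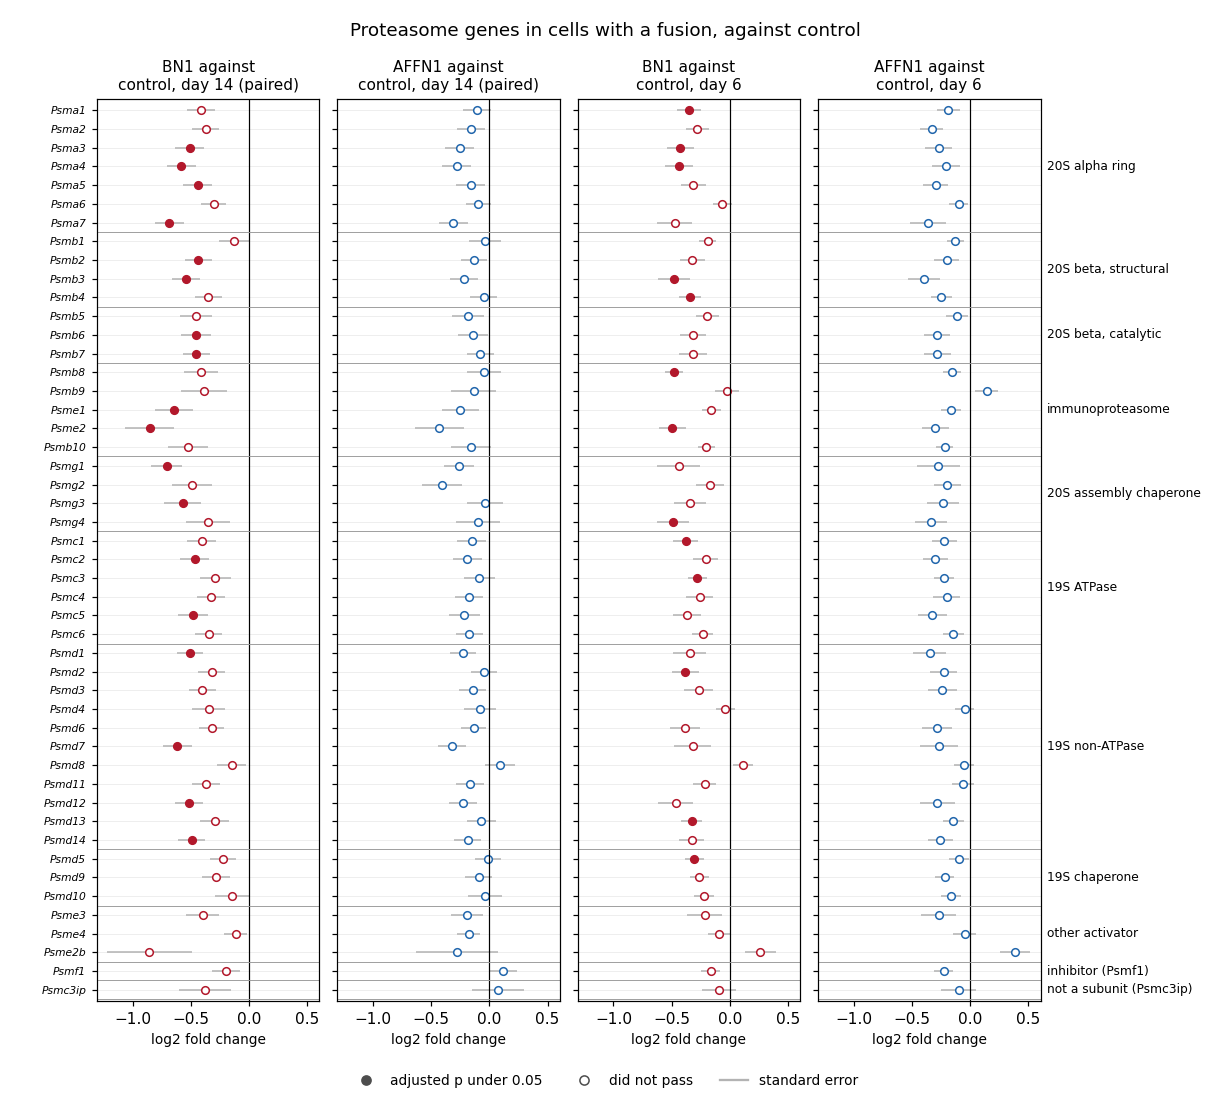
Log2 fold change of each of the 48 tested proteasome genes against control, for BN1 and AFFN1 on day 14 with the replicate block and on day 6 without it, ordered by role. Filled circles passed the threshold of 0.05 on the adjusted p, open circles did not, and grey lines are standard errors. In BN1, 18 genes are filled on day 14 and 13 on day 6, where 6 pass with the block, all to the left of 0, and none is filled in AFFN1. The days are drawn from different fits, and without the block no gene passed in BN1 on day 14.

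Among the 5 immunoproteasome genes, Psmb8 and Psme2 fell in BN1 on day 6. Psmb8 encodes the inducible catalytic subunit that replaces Psmb5. It had 149, 168 and 155 CPM in BN1, 195, 201 and 191 CPM in AFFN1 and 207, 213 and 234 CPM in control. The 3 groups did not overlap, with BN1 lowest and control highest. Psmb8 was 1.40-fold lower in BN1 than in control (log2 fold change -0.48, 95% confidence interval -0.66 to -0.31, adjusted p = 0.00222). It passed in each of the fits that left out 1 library of BN1 or control, with adjusted p-values of 0.00394 to 0.0140. Psme2, a subunit of PA28, had 71.7, 85.0 and 77.1 CPM in BN1, 86.3, 88.7 and 91.7 CPM in AFFN1 and 109, 127 and 91.3 CPM in control. All BN1 libraries were below all control libraries, and the level was 1.41-fold lower (adjusted p = 0.0159). This call was lost without BN1 1 or control 1, with adjusted p-values of 0.0768 and 0.0517.

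The other 3 did not pass on day 6. Psmb9, which lies 9956 bases from Psmb8 in the MHC region of chromosome 17, had 120, 111 and 117 CPM in BN1 and 113, 103 and 134 CPM in control. These overlapped, and the log2 fold change was -0.02 with a 95% confidence interval of -0.25 to 0.20. Whether the changes of Psmb8 and Psmb9 differ was not tested. Psmb10 had 50.5, 57.6 and 54.4 CPM in BN1, against 62.6, 60.1 and 62.7 CPM in control, and did not overlap (log2 fold change -0.20, adjusted p = 0.0807). Psme1, the other subunit of PA28 and 5911 bases from Psme2 on chromosome 14, had 150, 172 and 165 CPM in BN1, against 174, 194 and 169 CPM in control (adjusted p = 0.217). Its groups overlapped.

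**Figure D3:**
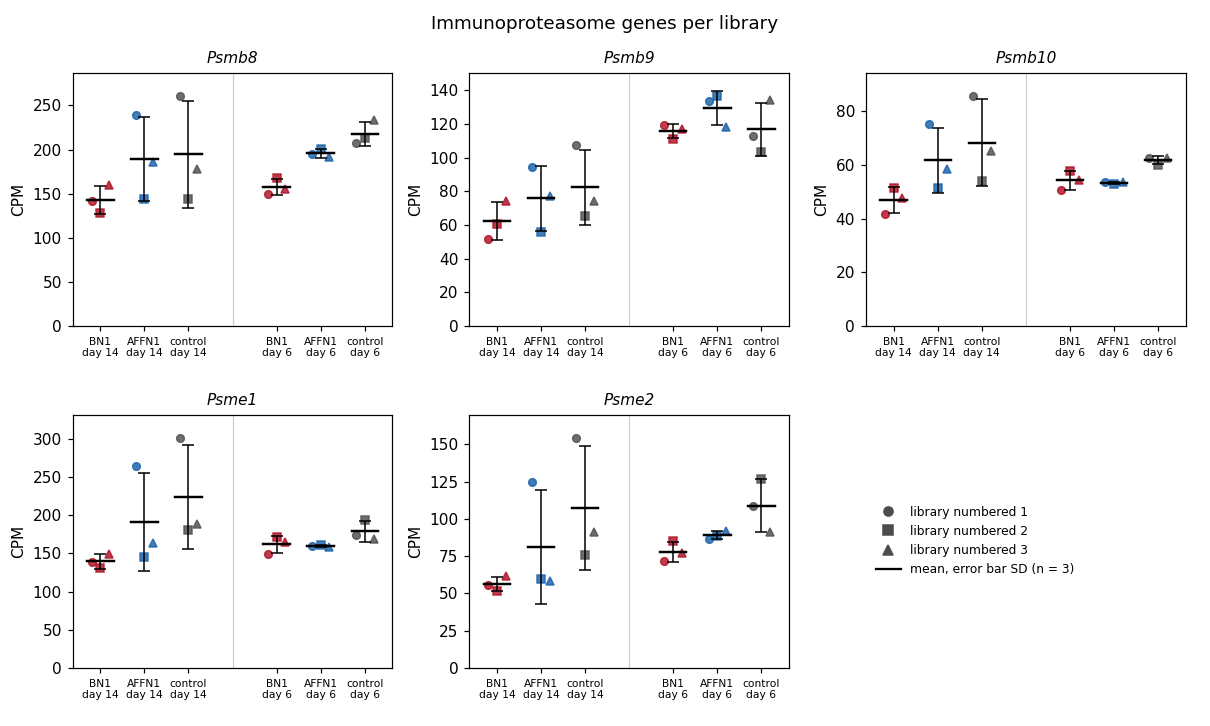
Levels of the 5 immunoproteasome genes in each library, in CPM, by group, with day 14 on the left of each panel. Points are libraries with the symbol giving the replicate number, the horizontal line is the mean and the error bar the SD (n = 3). Circles of AFFN1 and control on day 14, the libraries numbered 1, are the highest of their group in all 5 panels.

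Promoter sequence is shown for Psmb8 and Psmb9, which are neighbours but had different values, and for their constitutive counterparts Psmb5 and Psmb6. Each is the 150 bases before the start of the gene in RefSeq, build GRCm38.p6, written 5′ to 3′ on the strand of the gene. The windows are chr17:34198045-34198194 on the plus strand for Psmb8, chr14:54617996-54618145 on the minus strand for Psmb5, chr17:34187331-34187480 on the minus strand for Psmb9 and chr11:70525207-70525356 on the plus strand for Psmb6. GENCODE M21 places the 5′ end of Psmb8 at 34197721 and of Psmb9 at 34187764, so by GENCODE their windows lie inside the genes. For Psmb5 the GENCODE 5′ end, 54618022, falls within the window, and for Psmb6 it is 70525367, after the window. Distances below are from the RefSeq start. Capitals mark the only match in each window to any of 4 motifs searched on both strands.
Psmb8: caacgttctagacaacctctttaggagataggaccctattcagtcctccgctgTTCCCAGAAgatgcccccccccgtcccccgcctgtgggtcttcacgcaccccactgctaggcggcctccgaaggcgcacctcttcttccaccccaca
Psmb5: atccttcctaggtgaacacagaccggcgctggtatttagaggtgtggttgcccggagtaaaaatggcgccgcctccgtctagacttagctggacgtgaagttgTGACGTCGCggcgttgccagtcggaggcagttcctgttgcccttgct
Psmb9: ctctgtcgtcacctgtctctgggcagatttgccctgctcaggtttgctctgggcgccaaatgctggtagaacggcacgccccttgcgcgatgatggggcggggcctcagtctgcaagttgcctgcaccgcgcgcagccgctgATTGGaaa
Psmb6: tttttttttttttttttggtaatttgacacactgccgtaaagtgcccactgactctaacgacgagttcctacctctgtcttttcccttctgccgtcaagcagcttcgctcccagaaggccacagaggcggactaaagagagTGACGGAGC
The match in Psmb8 is to TTCNNNGAA, the STAT site, and begins 97 bases before the start. In Psmb5 and Psmb6 it is to TGACNNNGC, the core of the antioxidant response element, which begins 47 and 9 bases before the start. In Psmb9 it is to CCAAT, the NF-Y box, on the other strand and so read as ATTGG. The share of promoters with TGACNNNGC or CCAAT was close to that of all promoters, while the other motifs were each in 1 window only. TGACNNNGC was in 3 of 45 windows of 42 proteasome genes (6.67%), those of Psmb5, Psmb6 and Psmd9, against 6.80% of all 32851 windows, and CCAAT was in 11 of 45 (24.4%) against 24.5%. TTCNNNGAA was in 1 of 45, that of Psmb8, against 4.09%, and the core of the interferon-stimulated response element (TTTC, 2 bases of any kind, TTTC) was in 1, that of Psmd4, against 1.59%. A match is a description of the letters and does not show that a factor binds.

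AFFN1 was compared with the same 3 control libraries of day 6, and none of the 48 genes passed by edgeR, against 12.7% of all genes called. Unadjusted p-values under 0.05 were found for 19 of the 48, without a share of all genes at that threshold to set beside them. DESeq2 called 2 of the 48 and 2037 of all genes. The median log2 fold change was -0.22, with 46 of 48 values negative, and over all genes it was -0.02. AFFN1 and control libraries did not overlap for 15 of 48 genes (31.2%), against 32.3% of all genes. Without control 3, 16 genes passed, all lower in AFFN1, and without AFFN1 3, 1 passed in each direction. Over all genes 2250 and 1801 were called in these fits. With all 3 libraries numbered 3 left out, 30 passed, 2 higher and 28 lower, and 3873 of all genes were called. Psmb3 had 79.3, 74.6 and 98.2 CPM in AFFN1, against 109, 127 and 93.6 CPM in control, with an adjusted p of 0.0843. Its groups overlapped through AFFN1 3 and control 3.

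BN1 and AFFN1 were then compared directly, since a call in BN1 and none in AFFN1 does not show that the fusions differ. On day 6, 1 of the 48 genes was called, against 11.2% of all genes. This was Psmb8, which was 1.25-fold lower in BN1 than in AFFN1 (log2 fold change -0.32, 95% confidence interval -0.50 to -0.15, adjusted p = 0.0249). The call was lost without BN1 1, BN1 3, AFFN1 1 or AFFN1 2, with adjusted p-values of 0.0833 to 0.109. Groups did not overlap for 10 of 48 genes (20.8%), 9 of them lower in BN1, against 35% of all genes. For Psma3 the log2 difference between BN1 and AFFN1 was -0.15, with a 95% confidence interval of -0.42 to 0.11, and for Psmb3 it was -0.08, from -0.38 to 0.22.

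Genes that work with the proteasome were described from lists, whose counts on day 6 stand against 17.4% of all genes called in BN1 and 12.7% in AFFN1. Of 8 regulators of proteasome genes none passed in BN1 against control (3 had an unadjusted p under 0.05). In BN1 against AFFN1, where 11.2% of all genes were called, Nfe2l2 was lower in BN1. This stress-response activator, related to the one that drives proteasome genes, had means of 90.1 CPM in BN1 cells and 123 CPM in AFFN1 cells (adjusted p = 0.00557). Among 20 assembly factors, cofactors and shuttles Uchl5, a deubiquitinase of the 19S particle, and Sem1, a small 19S subunit outside the symbol rule, fell in BN1 against control, and Ubqln2, a shuttle, rose. Sem1 averaged 60.6 CPM in BN1 and 84.9 CPM in control (adjusted p = 0.00926). Of 14 ubiquitin and p97 genes Vcp, the p97 ATPase, and Uba1, the main ubiquitin-activating enzyme, fell, with 476 CPM in BN1 and 630 CPM in control for Vcp (adjusted p = 0.0227). With the block, Uchl5 and Uba1 did not pass (adjusted p = 0.0614 and 0.0518).

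Of 12 genes of MHC class I antigen processing, the chaperones Pdia3 and Canx fell in BN1 on day 6 and Nlrc5 rose. Nlrc5, a transcriptional activator of MHC class I genes and of Psmb9, had 263 CPM in BN1, against 198 CPM in control (adjusted p = 0.0490). None of these 3 passed with the block (adjusted p = 0.0538 for Pdia3, 0.0650 for Canx and 0.0540 for Nlrc5). Tapbp, which loads peptides, was the only one of the 12 called in AFFN1, with 202 CPM in AFFN1 and 160 CPM in control (adjusted p = 0.0420). The 22 interferon-response genes went both ways. In BN1, Zbp1, Usp18 and Ifit1 rose and Gbp2, Gbp3, Gbp7 and Bst2 fell, while in AFFN1 6 rose and 2 fell. Bst2 averaged 72.4 CPM in BN1, 174 CPM in AFFN1 and 135 CPM in control.

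Markers of other cells also differed on day 6, again beside 17.4% of all genes called in BN1 and 12.7% in AFFN1. Of 5 tested dendritic markers 3 rose and 1 fell in BN1 against control and 3 rose in AFFN1. Their summed level was 593 to 626 CPM in BN1, 649 to 860 CPM in AFFN1 and 321 to 413 CPM in control. Ccr9 had a mean of 280 CPM in BN1, 270 CPM in AFFN1 and 34.4 CPM in control, while Siglech, Xcr1 and Zbtb46 were at or near 0. Erythroid markers summed to 29.2 to 31.2 CPM in BN1, 4.95 to 6.90 CPM in AFFN1 and 2.70 to 2.80 CPM in control, and 2 of 4 tested rose in BN1, Car2 and Hbb-bt. Of 3 tested T and NK markers 2 rose in BN1, and their sums were 52.3 to 58.2 CPM in BN1, 35.5 to 44.9 CPM in AFFN1 and 17.9 to 42.6 CPM in control. Thy1, 1 of 10 tested stromal markers, fell in BN1, and no myeloid marker of 7 passed there. Of the 11 markers of CD45 and B-lineage progenitors, Pax5 and Flt3 rose in BN1, and the sums of the list were 6268 to 6871 CPM in BN1 and 5233 to 6799 CPM in control. The part of these genes in the proteasome result was not tested.

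On day 14 no proteasome gene passed in BN1 against control without the block, where 3 of 11657 genes (0.0257%) were called. By unadjusted p, 34 of the 48 were under 0.05. The share of all genes at that threshold is not given here, and the share called is not its counterpart. DESeq2 called 7 of the 48 and 719 of all genes. All 48 log2 fold changes were negative, with a median of -0.42, against -0.0048 over all genes. BN1 and control libraries did not overlap for 35 of 48 genes (72.9%), all lower in BN1, against 28.1% of all genes. With the replicate number as a block, which the pairing of that day allows, 18 of the 48 fell and none rose, against 11.6% of all genes called and 6.61% called lower. The paired count also depended on single pairs. It was 2 without the libraries numbered 1, 0 without those numbered 2 and 7 without those numbered 3, with median log2 fold changes of -0.27, -0.51 and -0.43. In the same fits 594, 143 and 684 of all genes were called.

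The 18 genes covered both rings of the core, PA28, the chaperones of 20S assembly (Psmg1 and Psmg3) and the 19S particle. In the alpha ring, Psma3, Psma4, Psma5 and Psma7 fell. Psma7 had 78.6, 70.9 and 75.2 CPM in BN1, 112, 93.8 and 86.5 CPM in AFFN1 and 138, 95.1 and 127 CPM in control. BN1 was the lowest group without overlap, and the paired test put it 1.61-fold below control (adjusted p = 0.0147). Psma7 and Psme2 were the 2 genes still called without the libraries numbered 1. Of the beta subunits, Psmb2, Psmb3, Psmb6 and Psmb7 fell, so that 2 of the 3 constitutive catalytic subunits passed on this day. Psmb7 had 77.1, 75.8 and 72.1 CPM in BN1, against 118, 89.8 and 98.4 CPM in control, and did not overlap (1.37-fold lower, adjusted p = 0.0351 with the block). Psmg1, a chaperone of 20S assembly, had 17.2, 13.5 and 15.2 CPM in BN1, against 32.3, 20.6 and 22.4 CPM in control, again without overlap (1.63-fold lower, adjusted p = 0.0148 with the block).

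In the 19S particle Psmc2, Psmc5, Psmd1, Psmd7, Psmd12 and Psmd14 fell. Psmd7 had 78.6, 81.6 and 91.5 CPM in BN1, against 149, 108 and 128 CPM in control, with no overlap (1.53-fold lower, adjusted p = 0.0183 with the block). Psmd14, the deubiquitinase that removes ubiquitin chains from substrates and forms a pair with Psmd7, had 80.3, 71.3 and 88.3 CPM in BN1, against 130, 103 and 101 CPM in control (1.41-fold lower, adjusted p = 0.0268 with the block). All 3 BN1 libraries were below all 3 controls for this gene too.

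Of the immunoproteasome genes, Psme1 and Psme2 fell on day 14 with the block. Psme2 had 55.6, 51.7 and 61.5 CPM in BN1, 125, 59.9 and 58.6 CPM in AFFN1 and 154, 75.9 and 90.9 CPM in control. BN1 lay below all controls and the highest values were those of control 1 and AFFN1 1. It was 1.81-fold lower than in control (adjusted p = 0.0374 with the block and 0.182 without it), and 1.50-fold lower without the libraries numbered 1 (adjusted p = 0.0416 with the block). Psme1 had 139, 130 and 150 CPM in BN1, against 302, 181 and 189 CPM in control. It was 1.56-fold lower with no overlap (adjusted p = 0.0333 with the block), and 1.34-fold lower without the libraries numbered 1 (adjusted p = 0.119).

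Psmb8, which had fallen in BN1 on day 6, had 142, 128 and 160 CPM in BN1, 239, 144 and 186 CPM in AFFN1 and 261, 144 and 178 CPM in control on day 14. The BN1 and control libraries overlapped, and the adjusted p was 0.0901 with the block and 0.313 without it. Its log2 fold change was -0.41 with the block and -0.19 without the libraries numbered 1. Psmb9 had 51.8, 60.5 and 74.2 CPM in BN1 and 107, 65.5 and 74.2 CPM in control, and Psmb10 had 41.7, 51.5 and 47.7 CPM in BN1 and 85.8, 53.9 and 65.0 CPM in control. Neither passed (adjusted p = 0.218 and 0.0720 with the block). Without the libraries numbered 1 the log2 fold change of Psmb9 was -0.08, against -0.39 with all pairs, and that of Psmb10 was -0.28, against -0.52 with all pairs. The median log2 fold change of the 22 interferon-response genes was -1.73 without the block, with none called, and -1.09 with it, with Gbp3 lower. It was -0.07 over the 21 tested in the paired fit without the libraries numbered 1. Control 1 was the only control of that day with a high sum of this list: the sums were 720, 683 and 756 CPM in BN1, against 2472, 724 and 841 CPM in control.

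Counts of the other lists on day 14 stand against 11.6% of all genes called in BN1 with the block. Of the other genes of the pathway, Uchl5, Pomp and Txnl1 of 20 cofactors fell in BN1 with the block. Pomp, the maturation factor of the 20S core, averaged 52.2 CPM in BN1 and 69.5 CPM in control (adjusted p = 0.0314). Bach1, a repressor of antioxidant response elements, was the only one of 8 regulators called, and rose to 50.8 CPM in BN1, against 29.4 CPM in control (adjusted p = 0.00991 with the block). None of 14 ubiquitin and p97 genes and none of 12 MHC class I genes passed with or without the block, and 1 and 2 of them had an unadjusted p under 0.05 with it. Erythroid markers summed to 13.5 to 39.5 CPM in BN1 and 22.9 to 100 CPM in control of day 14, where Hbb-bt and Hbb-bs fell with the block, and of 3 tested T and NK markers 2 rose. The 11 markers of CD45 and B-lineage progenitors summed to 9017, 10036 and 10348 CPM in BN1, against 6529, 7957 and 8983 CPM in control. These sums were higher in BN1 without overlap, and Kit and Il7r rose with the block. The dendritic markers summed to 687, 489 and 380 CPM in BN1, against 462, 363 and 356 CPM in control, and the myeloid markers to 98.5, 46.7 and 88.1 CPM in BN1, against 29.9, 34.3 and 57.1 CPM in control. Both sums overlapped between the groups but were higher in BN1 in every pair, and no gene of either list passed. The stromal markers summed to 73.5, 40.9 and 61.1 CPM in BN1 and 68.9, 92.2 and 103 CPM in control, and Thy1 fell with the block. The part of these markers in the proteasome values was not tested.

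AFFN1 against the same controls of day 14 gave no called proteasome gene, with 0.0429% of all genes called without and 0.558% with the block. Unadjusted p-values under 0.05 were found for 1 of the 48 genes without and 4 with the block. DESeq2 called 0 of the 48 and 76 of all genes. The median log2 fold change was -0.15, and 1 of 48 genes did not overlap between groups (2.08%), against 9.32% of all genes. BN1 against AFFN1 on day 14 called 0 of the 48 genes as well, where 0% of all genes were called without and 0.18% with the block. There, 8 of the 48 had an unadjusted p under 0.05 without the block and 20 with it. For neither comparison is the share of all genes at that threshold given here. DESeq2 called 0 of the 48 and 91 of all genes. The median was -0.29, and BN1 lay below AFFN1 without overlap for 23 of 48 genes (47.9%), against 16.8% of all genes that did not overlap.

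Whether the fusions' differences from control changed between the days was tested on all 18 libraries, which share the control libraries of each day with the comparisons above. No proteasome gene passed for BN1 or for AFFN1, with or without the block or by DESeq2, while 2.97% and 1.46% of all genes were called without the block. For each fusion 1 of the 48 genes had an unadjusted p under 0.05, Psme2b in BN1 and Psmf1, which encodes the inhibitor PI31, in AFFN1. The median of the 48 interaction values for BN1 was -0.13 on the log2 scale.

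The control cells themselves differed between the days. Of the 48 genes 9 were higher on day 14 and 7 were lower, against 43.9% of all genes called, 22.4% higher and 21.4% lower. The days did not overlap for 15 of the 48 (31.2%), against 51.1% of all genes. The median log2 fold change was -0.07, against -0.03 over all genes. Psmb2, a beta subunit of the core, had 196, 147 and 168 CPM on day 14, against 83.7, 83.3 and 68.6 CPM on day 6. The days did not overlap and the level was 2.17-fold higher on day 14 (log2 fold change 1.12, 95% confidence interval 0.87 to 1.37). Psmd8, a 19S subunit, had 381, 314 and 333 CPM on day 14, against 177, 185 and 178 CPM on day 6, and was 1.90-fold higher without overlap (log2 fold change 0.93, 95% confidence interval 0.69 to 1.16). The same order of days was seen for both genes in the other groups, with 127, 125 and 129 CPM for Psmb2 in BN1 on day 14 and 57.6, 69.8 and 62.7 CPM in BN1 on day 6.

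The other genes that were higher on day 14 in control cells were Psmf1, Psmd11, Psme3, Psmc4, Psmb3, Psmd4 and Psmb1, with log2 fold changes of 0.65 for Psmf1 to 0.30 for Psmb1. Psme3 encodes the nuclear activator PA28 gamma. Among the lower ones, Psmd2 had 231, 186 and 170 CPM on day 14, against 308, 349 and 249 CPM on day 6, and was 1.54-fold lower without overlap (adjusted p = 0.00180). Psmb4, Psmb7, Psmc5 and Psmd10 were 1.31- to 1.45-fold lower, and Psme2b, whose reads are uncertain, was 1.95-fold lower. Psmb9 was the only called immunoproteasome gene, with 107, 65.5 and 74.2 CPM on day 14, against 113, 103 and 134 CPM on day 6. Control 1 of day 14 overlapped with day 6 (1.42-fold lower, adjusted p = 0.0435), and the log2 fold change of -0.51 became -0.74 without it. The call was lost without control 1 or 3 of day 6 or control 2 or 3 of day 14, with adjusted p-values of 0.0721 to 0.170. The split of the calls depended on control 1 of day 14 too, with 6 higher and 13 lower without it. There were 5 higher and 19 lower when the libraries numbered 3 of day 6 and 1 of day 14 were left out in all groups. Over all genes the latter fit called 2658 higher and 2341 lower, and fits without 1 control library called 4749 to 5277 genes.

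**Figure D4:**
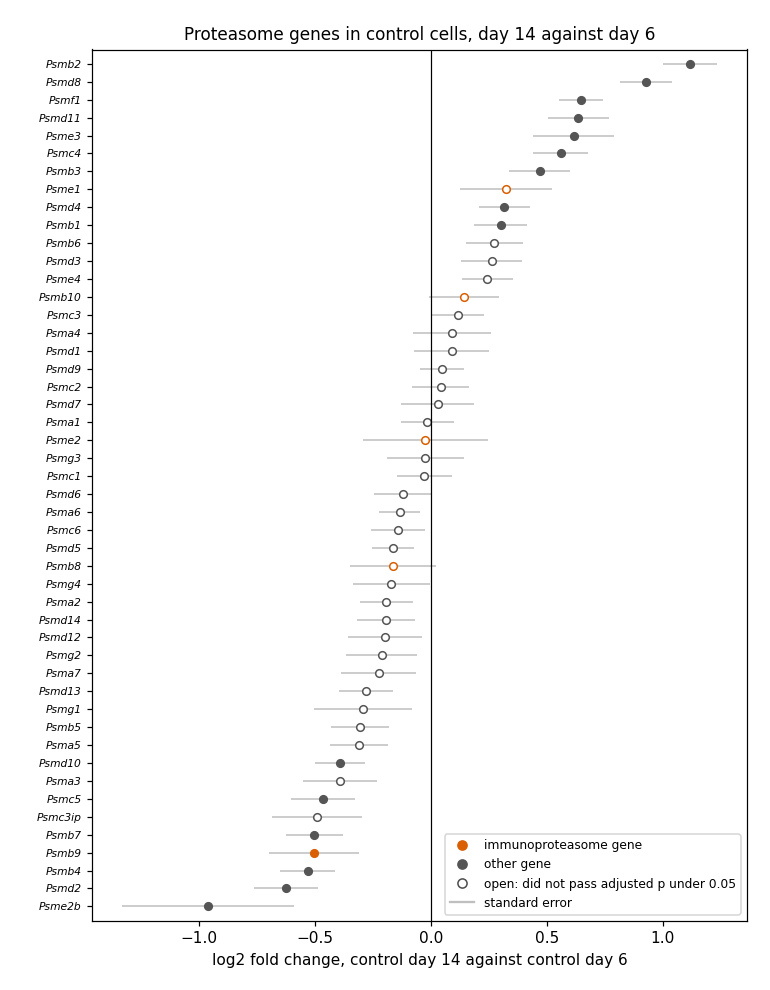
Log2 fold change of the 48 tested proteasome genes in control cells, day 14 against day 6, ordered by value. Filled circles passed the threshold of 0.05 on the adjusted p, orange marks immunoproteasome genes, and grey lines are standard errors. Psmb2 and Psmd8 lie farthest to the right at 1.12 and 0.93, and Psme2b farthest to the left at -0.96.

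Genes around the proteasome also differed between the days in control cells, where 43.9% of all genes were called. Of 20 cofactors 7 were higher and 4 lower on day 14, with Ubqln2 at 91.1 CPM on day 14 and 42.8 CPM on day 6 (adjusted p = 5.58e-06). Of 14 ubiquitin and p97 genes 7 were higher and 3 lower, and Ubb and Rps27a, which encode ubiquitin precursors, were among the higher ones. Nfe2l2 was higher and Bach1 lower on day 14, with 29.4 CPM on day 14 and 64.4 CPM on day 6 for Bach1. Of 12 MHC class I genes 3 were lower, H2-K1, Tap2 and Nlrc5. Tap2, whose product carries the peptides made by the proteasome into the endoplasmic reticulum, averaged 129 CPM on day 14 and 239 CPM on day 6 (adjusted p = 0.00270).

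The exchange of catalytic subunits was summarised as the log2 ratio of each inducible gene to its constitutive counterpart within a library, which needs no scaling between libraries. These ratios of CPM are not per length, so they compare libraries and not the levels of the 2 genes. With 3 libraries against 3 the smallest p that the exact permutation test can give is 0.10, and 21 differences were tested. The ratio of Psmb8 to Psmb5 on day 6 was 0.77 ± 0.08 in BN1, 1.01 ± 0.12 in AFFN1 and 1.06 ± 0.24 in control (SD, n = 3). BN1 did not overlap with control (difference -0.29) or with AFFN1 (difference -0.24), each with an exact two-sided p of 0.1 and an adjusted p of 0.525. Without control 3 the difference from control was -0.15. On day 14 the ratio was 1.20 ± 0.24 in BN1, 1.30 ± 0.24 in AFFN1 and 1.16 ± 0.23 in control, and the groups overlapped.

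For Psmb9 to Psmb6 the control cells had -0.60 ± 0.25 on day 14 and 0.20 ± 0.35 on day 6, a difference of -0.80 without overlap. The BN1 cells had -0.55 ± 0.21 on day 14 and 0.50 ± 0.23 on day 6, and the AFFN1 cells had -0.60 ± 0.32 on day 14 and 0.63 ± 0.17 on day 6. The ratio of Psmb10 to Psmb7 went the other way in control cells, with -0.60 ± 0.14 on day 14 and -1.21 ± 0.28 on day 6 (difference 0.62, no overlap). Both differences between days had an exact two-sided p of 0.1 and an adjusted p of 0.525. On day 14 all 3 ratios overlapped between each fusion and control. Within pairs of that day, the ratio of Psmb8 to Psmb5 in AFFN1 exceeded that in control by 0.15, 0.13 and 0.14 in pairs 1, 2 and 3 (mean 0.14 ± 0.0059, SD, n = 3). It was higher in AFFN1 in 3 of 3 pairs, with an exact two-sided sign-flip p of 0.25, the smallest that 3 pairs can give. The other 5 differences between a fusion and control within pairs of that day did not have 1 sign.

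**Figure D5:**
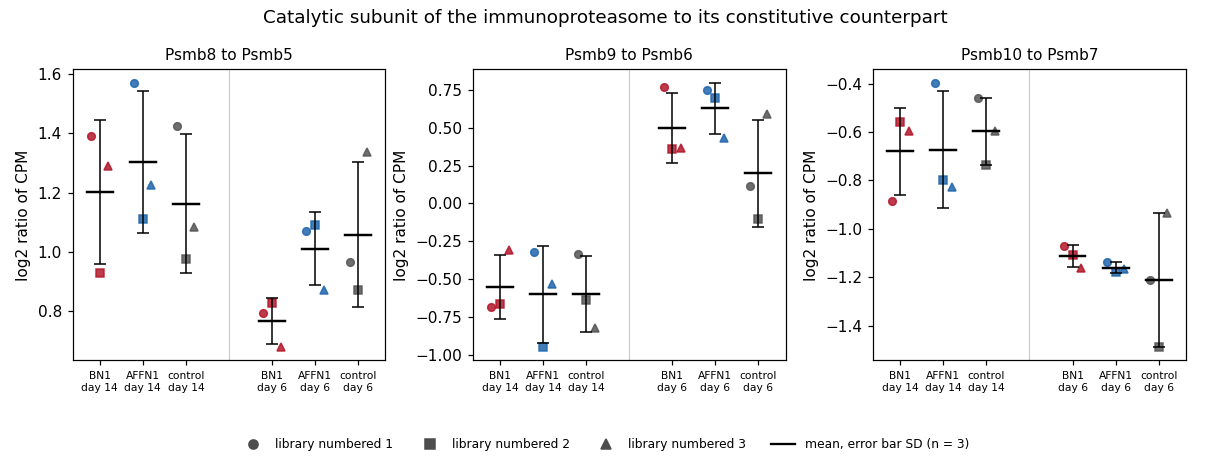
Log2 ratio of the CPM of each inducible catalytic subunit to its constitutive counterpart in each library, with day 14 on the left of each panel. Points are libraries, the horizontal line is the mean and the error bar the SD (n = 3). Psmb9 to Psmb6 lies below 0 in all 9 libraries of day 14 and above 0 in 8 of 9 libraries of day 6, and Psmb8 to Psmb5 is lowest in the BN1 libraries of day 6.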

How the data were processed

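The authors deposited a table of expected counts per gene. The submitters' processing notes name STAR, RSEM, DESeq2 and build mm10. Versions, gene annotation and strandedness used in counting are not given in these sources. RNA was poly(A)-selected and libraries keep strand, per the labels' protocols. The share of values that were not whole was 1.74 to 2.12% per library, and values were rounded before tests in R 4.3.3. Genes were filtered with filterByExpr, scaled by TMM and compared with edgeR 4.0.16 (quasi-likelihood, robust, two-sided), within a day on its 9 libraries and across days on all 18, with Benjamini-Hochberg adjustment over all genes. Printed CPM are scaled by TMM over all 18 libraries, and fold changes come from each fit. DESeq2 1.42.0 was an alternative. The fits without the block were tried on simulated data, for differences within a day. The fits with the block and the differences between days were not tried in this way. Exon lengths and coordinates are from GENCODE M21 of mm10, in which 32235 of 32285 gene identifiers (99.8%) were found.

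Same-numbered libraries of day 14 share a code in the sample descriptions, and their deviations from group means correlated at 0.261 to 0.599 (9 pairs), against -0.474 to 0.0325 for different numbers, so numbers were taken as pairs. On day 6 they correlated at 0.139 to 0.332 between BN1 and control (3 pairs), against -0.341 to 0.0798 for different numbers, and were taken as pairs there too, though the labels of that day give no shared code. With AFFN1 of day 6 they correlated at -0.299 to 0.196 and were not taken as pairs, but the block of that day covered those libraries too. The highest correlation of day 6 between libraries of different groups, 0.371, was between control 2 and AFFN1 3, which differ in number. The pairing of day 6 is therefore uncertain. Libraries of a group differed by more than counting noise (chi-square per degree of freedom of 3.97 or more). All proteasome genes are members by symbol. The immunoproteasome genes and called genes are named with values, and of the other lists the called genes may be named. Members and lists were chosen with earlier results of these data known. Some genes of the other lists are counted but not reported by name here.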

Additional observations from a re-analysis of the deposited data

How the results depend on the processing

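With 1 choice changed at a time, no called proteasome gene changed sign. The 13 proteasome genes called in BN1 against control on day 6 became 20 by DESeq2, 6 with the replicate block and 35 without the libraries numbered 3 of day 6 (1 to 30 with 1 library left out). The 0 called in AFFN1 against control on day 6 became 2 by DESeq2 and 30 without those libraries (0 to 16), and the 1 called in BN1 against AFFN1 became 0 to 1. On day 14 the 0 called in BN1 against control became 7 by DESeq2 and 18 with the block, and, in paired fits added after seeing the data, 2 without the pair numbered 1, 0 without 2 and 7 without 3. Over all genes the counts were 2095 and 3890 without the libraries numbered 3 for BN1 against control on day 6 (1141 to 3495 with 1 library left out), 1528 and 3873 for AFFN1 (739 to 2250), and 725 to 1047 for BN1 against AFFN1. Against control on day 6 these counts were 2633 for BN1 and 2037 for AFFN1 by DESeq2, and 1801 and 1347 with the block. For BN1 against control on day 14 they were 3, then 5 with RLE scaling, 17 without the filter, 719 by DESeq2, 1348 with the block, 18 without the libraries numbered 1, and 594, 143 and 684 with the block and without pair 1, 2 or 3 (1 to 5 with 1 library left out). For AFFN1 against control they were 5, then 25 without the filter, 76 by DESeq2, 65 with the block, 11 without the libraries numbered 1, and 263, 25 and 1 without the pairs (0 to 9). For BN1 against AFFN1 they were 0, then 5, 91 and 21, and 124 and 5 without pairs 1 and 2. The change of the effect between days gave 373 for BN1, then 605 by DESeq2 and 649 with the block, and 183 for AFFN1, then 342 and 319 (110 to 214). The cause of these differences was not tested. For AFFN1 of day 6 the samples share only a number, and the block left the counts of proteasome genes at 0 against control and 1 for BN1 against AFFN1. Between the days of control cells the block gave 10 higher and 11 lower, against 9 and 7 without it. Over all genes it gave 3162 higher and 3231 lower, against 2817 and 2695 without it. With 3 libraries per group the spread limits what can pass: the 95% confidence interval of the log2 fold change of Psmb9 in BN1 against control ran from -0.25 to 0.20 on day 6 and from -0.96 to 0.11 on day 14.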
